A study of Mus musculus with 8 samples.

Results

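The skeletal muscle genes described here are 39 genes of the contractile apparatus, calcium handling and energy supply of striated muscle, measured in RNA of the whole mouse aorta. They were found in the deposited gene table by their symbol. For the 2 genes whose symbol named more than 1 assembled locus, the locus was chosen by its count summed over the 8 libraries, the largest being taken. The list itself was drawn up with earlier results of these libraries known, so the values and tests of its members are a description and not independent support. Myh2 and Myh4 share 1 assembled locus, so the 39 genes lie at 38 of the 48607 loci of the table. Of these, 15 loci with 16 of the genes reached 1 FPKM (mapped fragments scaled to transcript length and library size) in at least 3 libraries and were tested, whereas the other 23 genes were not.

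Mice without apolipoprotein E (ApoE-/-), which develop atherosclerosis, were compared with mice that also lack the natriuretic peptide receptor C (NPRC-/-ApoE-/-), a germline frameshift of Npr3 made with CRISPR. Both groups were therefore ApoE-/-, and both ate a Western diet for 12 weeks. The titles gave 5 libraries as ApoE-/-, with numbers 1 to 5, and the other 3 as NPRC-/-ApoE-/-, with numbers 1 to 3. The genotype entered separately for the same samples conflicted with the title in 4 of the 8. It read Apoe-/- for ApoE-/- 1, 2 and 3 and for NPRC-/-ApoE-/- 1 and 2, and Nprc-/-Apoe-/- for ApoE-/- 4 and 5 and for NPRC-/-ApoE-/- 3. Hence each comparison was made by title and again by genotype entry, and libraries are called by their title below. The methods name aortas of 5 mice of each genotype for sequencing, whereas 3 libraries here carry the title NPRC-/-ApoE-/-. The age of these littermates at collection is not given in the sources used here. No label ties a library to an animal, so p-values measure the spread between these libraries, which may in part be technical.

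In striated muscle, myosin thick filaments pull on actin thin filaments within the sarcomere. Calcium released from the sarcoplasmic reticulum through the ryanodine receptor moves troponin and so permits contraction, and the calcium pump SERCA takes it back. Fast and slow fibres use different genes for myosin, troponin, calcium pump and myosin-binding protein. The aortic wall itself holds smooth muscle, which has its own actin and myosin and no sarcomeres. Tissue around the aorta includes fat, and skeletal muscle lies nearby.

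The total count was 62969165 to 86693276 per library. No pair of libraries within a titled group was as alike as sampling noise allows (mean chi-square per locus of at least 100.7). Npr3, the targeted gene, was at 0.62 to 1.69 FPKM under the title ApoE-/- and at 1.13 to 1.39 FPKM under NPRC-/-ApoE-/-, which overlap. The mutation is a frameshift, so the level of the transcript does not check the labels. The smooth muscle actin of the aorta, Acta2, was at 849 to 1982 FPKM. In contrast, the muscle genes as a whole took only 0.0131 to 0.0410% of the counts of a library.

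The following sequences, from RefSeq on GRCm38.p6, are the 250 bases before the transcription start of 4 of the genes, written from 5′ to 3′ along the gene. They are shown because Acta1, Myh4 and Atp2a1 belong to the genes whose levels moved together between libraries, while Klhl41 was present in every library. Capitals mark matches on either strand to the CArG box, the MEF2 site, TATAAA and the E-box CANNTG.
Acta1 (chr8:123894776-123895025, minus strand): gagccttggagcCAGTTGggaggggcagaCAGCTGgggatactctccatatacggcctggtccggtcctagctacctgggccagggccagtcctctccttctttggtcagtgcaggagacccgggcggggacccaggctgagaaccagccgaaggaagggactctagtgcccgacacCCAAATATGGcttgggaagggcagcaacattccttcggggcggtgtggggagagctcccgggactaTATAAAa
Myh4 (chr11:67237562-67237811, plus strand): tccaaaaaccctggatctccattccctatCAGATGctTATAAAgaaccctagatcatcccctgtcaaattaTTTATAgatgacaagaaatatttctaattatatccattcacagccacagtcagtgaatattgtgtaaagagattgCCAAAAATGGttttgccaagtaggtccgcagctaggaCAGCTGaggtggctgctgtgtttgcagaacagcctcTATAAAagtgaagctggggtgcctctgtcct
Klhl41 (chr2:69669870-69670119, plus strand): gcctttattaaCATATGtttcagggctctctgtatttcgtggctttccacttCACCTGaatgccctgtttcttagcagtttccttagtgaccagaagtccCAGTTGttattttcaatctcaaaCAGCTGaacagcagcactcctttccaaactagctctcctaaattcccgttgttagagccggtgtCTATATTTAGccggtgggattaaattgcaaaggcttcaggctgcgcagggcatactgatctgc
Atp2a1 (chr7:126463074-126463323, minus strand): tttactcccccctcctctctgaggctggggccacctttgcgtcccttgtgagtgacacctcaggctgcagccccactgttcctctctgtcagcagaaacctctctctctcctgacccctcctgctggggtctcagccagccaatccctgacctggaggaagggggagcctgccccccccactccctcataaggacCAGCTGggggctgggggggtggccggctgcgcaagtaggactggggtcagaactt
Positions are counted back from the RefSeq start, which for Acta1, Myh4 and Atp2a1 lies inside the assembled locus. The CArG box, bound by serum response factor, occurred 73 to 64 bases before the start of Acta1 and 104 to 95 bases before the start of Myh4. A MEF2 site occurred 63 to 54 bases before the start of Klhl41. Windows were given for 28 of the 39 genes, 36 windows in all. A CArG box was found in 2 of these windows (1.47% of 32851 mouse windows of the same length), a MEF2 site in 3 (0.508%), TATAAA in 5 (12.4%) and CANNTG in 30 (66.2%). Matches of the 4 motifs could overlap, and none of them shows that a factor binds there.

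The muscle genes took 0.0377, 0.0236, 0.0200, 0.0131 and 0.0391% of the counts in ApoE-/- 1 to 5, and 0.0384, 0.0410 and 0.0336% in NPRC-/-ApoE-/- 1 to 3. Thus ApoE-/- 2, 3 and 4 were low, and ApoE-/- 1 and 5 lay among the libraries titled NPRC-/-ApoE-/-. Titin alone supplied many of these counts because its transcript is long. Without Ttn the share was 0.0229, 0.0147, 0.0127, 0.0110 and 0.0254% in ApoE-/- 1 to 5 and 0.0212, 0.0265 and 0.0236% in NPRC-/-ApoE-/- 1 to 3, with the same 3 libraries at the bottom. In whole tissue, fewer cells of a type and less RNA per cell cannot be told apart.

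Fast-fibre genes separated the libraries most clearly. Summed over the 11 loci of the 12 fast-fibre genes, the level was 12.4, 1.75, 1.24, 1.35 and 16.9 FPKM in ApoE-/- 1 to 5 and 10.1, 13.7 and 10.6 FPKM in NPRC-/-ApoE-/- 1 to 3. So 3 libraries titled ApoE-/- had little fast-fibre RNA, and the other 2 reached or passed the values of those titled NPRC-/-ApoE-/-. The 4 slow-fibre genes summed to only 0.11 to 0.28 FPKM under the title ApoE-/- and 0.20 to 0.30 FPKM under NPRC-/-ApoE-/-, and did not follow that order.

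**Figure D1:**
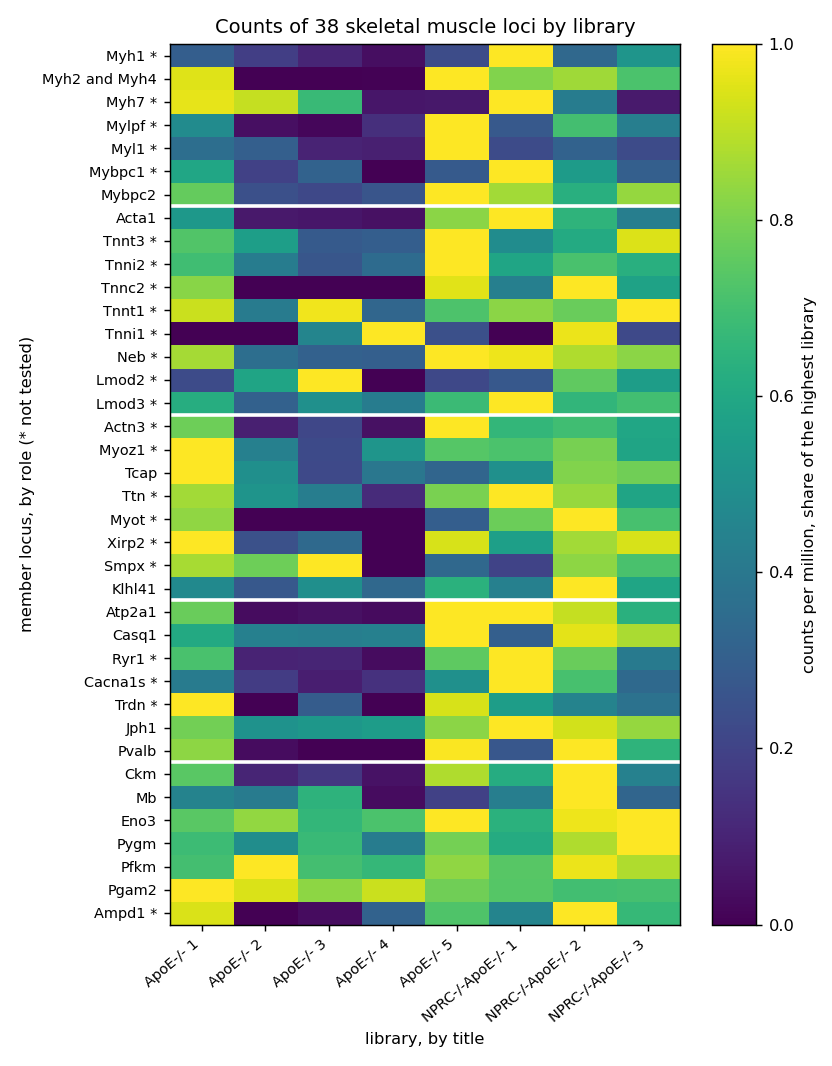
CPM of the 38 muscle loci (vertical axis, in order of role, with white lines between roles) in the 8 libraries (horizontal axis), each as a share of the highest library for that locus. The columns ApoE-/- 2, 3 and 4 are dark for most sarcomere and calcium genes, whereas Eno3, Pfkm and Pgam2 keep a high share in all 8 columns.

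The thick filament is built of myosin heavy chains, light chains and binding proteins. The locus of Myh2 and Myh4, the heavy chains of fast fibres IIA and IIB, had 1465, 4, 4, 8 and 1474 counts in ApoE-/- 1 to 5 and 1347, 1033 and 1177 counts in NPRC-/-ApoE-/- 1 to 3. As FPKM this was 1.13, 0, 0, 0.01 and 1.21, against 0.98, 1.02 and 0.86. Hence the locus was either near 0 or near 1 FPKM, with both states among the libraries titled ApoE-/-. This locus (chr11:67171027-67260405, plus strand, GRCm38) runs across the annotated genes Myh2, Myh1 and Myh4, whose coding sequences are near copies of each other, so their reads may have been split between loci.

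Myh1, the fast heavy chain IIX, had its own locus (chr11:67200052-67224575, plus strand) with 62, 32, 22, 8 and 46 counts in ApoE-/- 1 to 5 and 223, 55 and 115 counts in NPRC-/-ApoE-/- 1 to 3. Its FPKM did not exceed 0.34, reached in NPRC-/-ApoE-/- 1. Myh7, a heavy chain of slow fibres and of heart muscle, was at 0.01 to 0.09 FPKM. It had 76, 60, 55, 5 and 5 counts in ApoE-/- 1 to 5 and 85, 26 and 6 counts in NPRC-/-ApoE-/- 1 to 3. ApoE-/- 2 and 3 were therefore not low for Myh7, unlike for the fast heavy chains. Of the summed FPKM of the myosin loci Myh1, Myh2 with Myh4, and Myh7, the locus of Myh2 and Myh4 made up 85.6 and 93.1% in ApoE-/- 1 and 5 and 69.5, 87.2 and 82.7% in NPRC-/-ApoE-/- 1 to 3. In ApoE-/- 2, 3 and 4 the myosin loci held only 96, 81 and 21 counts together, too few to describe a make-up.

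Of the other thick filament genes, Mybpc2 and Mylpf had the order of the locus of Myh2 and Myh4. Mybpc2, the fast myosin-binding protein C, was at 1.04, 0.34, 0.30, 0.37 and 1.40 FPKM in ApoE-/- 1 to 5 and at 1.2, 0.87 and 1.16 FPKM in NPRC-/-ApoE-/- 1 to 3. Mylpf, the fast regulatory light chain, had 98, 7, 4, 29 and 194 counts against 61, 111 and 92. Both were low in ApoE-/- 2, 3 and 4, and the titled groups overlapped through ApoE-/- 1 and 5. Myl1, the fast essential light chain, and Mybpc1, the slow myosin-binding protein C, stayed at or below 0.81 and 0.08 FPKM, and neither had that order. The FPKM of Myl1 corresponds to a transcript of about 18718 bases, close to the whole span of the locus, which makes its FPKM small for its 109 to 1150 counts.

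In the thin filament, Acta1, the actin of skeletal muscle (chr8:123891101-123894982, minus strand), was at 2.14, 0.27, 0.25, 0.19 and 3.41 FPKM in ApoE-/- 1 to 5 and at 4.11, 2.61 and 1.73 FPKM in NPRC-/-ApoE-/- 1 to 3. It was thus low in the same 3 libraries, and ApoE-/- 1 and 5 reached the level of the libraries titled NPRC-/-ApoE-/-. The actin genes have nearly identical coding sequences, so reads of Acta2 or Actc1 could be counted at Acta1. The part of such reads in the level of Acta1 was not tested.

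The fast troponins were less abundant. Tnnt3, fast troponin T, had 129, 83, 52, 56 and 170 counts in ApoE-/- 1 to 5 and 93, 85 and 179 counts in NPRC-/-ApoE-/- 1 to 3, a difference between libraries of 3.22-fold at most in CPM (counts scaled to library size). Tnnc2, fast troponin C, had 44, 0, 0, 0 and 49 counts against 25, 42 and 33. A count of 0 at this depth allows up to 3 counts, or 0.0346 to 0.0476 CPM, which covers counting error only. Tnnc2 thus lay at or under the detection limit in ApoE-/- 2, 3 and 4 and above it in the other 5. Slow troponin T (Tnnt1, 12 to 37 counts) and slow troponin I (Tnni1, 0 to 18 counts) had no such order, and Tnni1 was at 0 in ApoE-/- 1 and 2 and NPRC-/-ApoE-/- 1. The fast Tnnt3 lacked that order too, at 0.38 FPKM in ApoE-/- 2 and 0.34 FPKM in NPRC-/-ApoE-/- 1. Neb (nebulin, the ruler along the thin filament) ranged from 0.10 to 0.34 FPKM, with ApoE-/- 2, 3 and 4 at 0.10 to 0.12 and the other 5 at 0.28 to 0.34. Tnni2, Lmod2 and Lmod3, fast troponin I and 2 leiomodins that nucleate actin, reached 0.72, 0.30 and 0.30 FPKM at most.

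**Figure D2:**
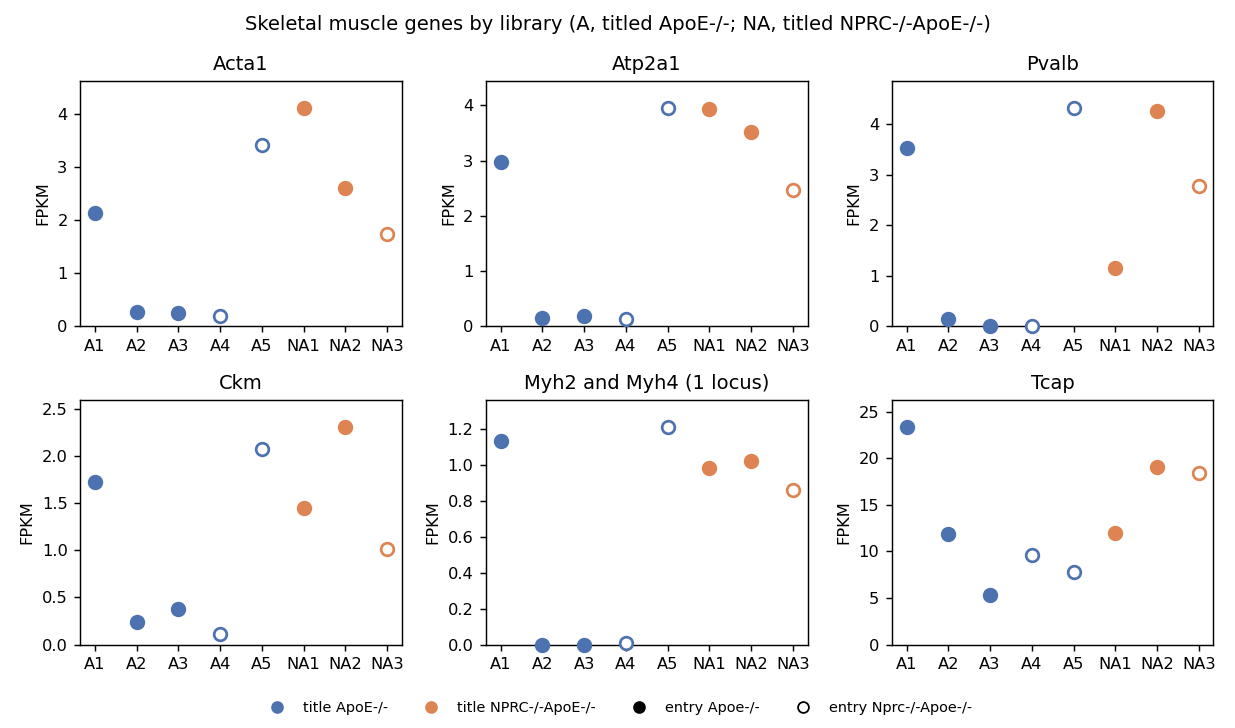
FPKM (vertical axes, from 0) of 6 loci in the 8 libraries (horizontal axes), with the colour for the title and filled or open points for the genotype entry. Acta1, Atp2a1, Pvalb, Ckm and the locus of Myh2 and Myh4 are near 0 in ApoE-/- 2, 3 and 4, while Tcap is at 5.27 FPKM or more in every library.

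At the Z-disc, Tcap (telethonin, which anchors titin) was the most abundant of the 39 genes, and it did not follow the fast-fibre genes. Its level was 23.4, 11.9, 5.27, 9.58 and 7.82 FPKM in ApoE-/- 1 to 5 and 11.9, 19.0 and 18.4 FPKM in NPRC-/-ApoE-/- 1 to 3. ApoE-/- 5, with the highest fast-fibre sum, was second lowest for Tcap. Klhl41, a kelch protein that stabilizes nebulin, was at 0.91, 0.54, 0.98, 0.67 and 1.25 FPKM against 0.85, 1.92 and 1.13. Actn3, the alpha-actinin of fast fibres, had 238, 22, 67, 15 and 293 counts in ApoE-/- 1 to 5 and 218, 166 and 193 counts in NPRC-/-ApoE-/- 1 to 3, the fast-fibre order. Titin (Ttn), a giant elastic protein also made in the heart, had 11845, 5968, 6023, 1759 and 10536 counts against 14864, 9144 and 8591, so ApoE-/- 4 alone was far down while ApoE-/- 2 and 3 were intermediate. Myoz1, Myot, Xirp2 and Smpx, other proteins of the Z-disc and its surroundings, stayed under 1 FPKM. Myot had 0 counts in ApoE-/- 2, 3 and 4 and 11 to 32 counts elsewhere.

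Calcium handling genes held 2 patterns. Atp2a1, the SERCA pump of fast fibres (chr7:126445858-126463108, minus strand), was at 2.98, 0.14, 0.18, 0.12 and 3.95 FPKM in ApoE-/- 1 to 5 and at 3.94, 3.52 and 2.47 FPKM in NPRC-/-ApoE-/- 1 to 3. Pvalb, parvalbumin, the calcium buffer of fast fibres, was at 3.54, 0.13, 0, 0 and 4.32 FPKM against 1.16, 4.26 and 2.78. Both were near or at 0 in ApoE-/- 2, 3 and 4. Casq1, calsequestrin of the sarcoplasmic reticulum, was at 3.32, 2.42, 2.40, 2.46 and 5.58 FPKM against 1.68, 5.24 and 4.79, so it was well expressed in the same 3 libraries, and its lowest value was in NPRC-/-ApoE-/- 1. Jph1, junctophilin of the triad, was at 1.03, 0.68, 0.71, 0.74 and 1.10 FPKM in ApoE-/- 1 to 5 and at 1.33, 1.21 and 1.10 FPKM in NPRC-/-ApoE-/- 1 to 3. Its lowest values were thus also in ApoE-/- 2, 3 and 4, over a narrower range. The ryanodine receptor Ryr1 had 16 to 49 counts in ApoE-/- 2, 3 and 4 and 201 to 499 in the other 5. Cacna1s, the voltage sensor that opens it, had 8 to 14 and 34 to 101 counts in these libraries, and Trdn (triadin) 0 to 12 and 14 to 40.

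The energy supply genes were split in the same way. Ckm, muscle creatine kinase, was at 1.72, 0.24, 0.38, 0.11 and 2.07 FPKM in ApoE-/- 1 to 5 and at 1.45, 2.31 and 1.01 FPKM in NPRC-/-ApoE-/- 1 to 3, the fast-fibre order. Mb, myoglobin, which stores oxygen in slow fibres and in the heart, was at 1.17, 1.12, 1.76, 0.09 and 0.52 FPKM against 1.15, 2.65 and 0.87. Its lowest values were therefore in ApoE-/- 4 and 5, and ApoE-/- 2 and 3 were not low. Pygm, muscle glycogen phosphorylase, was at 7.18, 5.23, 7.28, 4.54 and 8.45 FPKM against 6.52, 9.23 and 10.5. Pfkm, muscle phosphofructokinase, was at 6, 8.74, 6.15, 5.91 and 7.30 FPKM against 6.47, 8.34 and 7.57. The highest library exceeded the lowest by 2.32-fold for Pygm, 1.47-fold for Pfkm, 1.66-fold for Eno3 (muscle enolase) and 1.45-fold for Pgam2 (muscle phosphoglycerate mutase) in CPM, compared with 346-fold for the locus of Myh2 and Myh4. Ampd1, AMP deaminase of muscle, had 0 to 83 counts.

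In all, 6 of the 39 genes (Tcap, Casq1, Eno3, Pygm, Pfkm and Pgam2) had at least 1 FPKM in every library, 10 in 3 to 7 libraries, 3 in 1 or 2 libraries and 20 in none, while 10 had a count of 0 in at least 1 library. ApoE-/- 2, 3 and 4 all lay below the other 5 libraries at 7 of the 15 tested muscle loci, compared with 9.12% of all 20506 tested loci, and at 22 of all 38, compared with 6.13% of the 44689 loci with a count. This order, called the fast-fibre order here, was found at 9 of the 11 fast-fibre loci and at 0 of the 4 slow-fibre loci. The slow-fibre loci summed to at most 0.30 FPKM in a library. By role, the order was found at 4 of 7 thick filament, 5 of 9 thin filament and 5 of 8 Z-disc loci. It was also found at 6 of 7 calcium handling and 2 of 7 energy supply loci, so it was not confined to fast-fibre genes. Outside the 39 genes, 5 of 12 muscle membrane loci, 3 of 10 smooth muscle markers and 3 of 37 other sarcomere loci had it. ApoE-/- 2, 3 and 4 were picked out after the values were seen and are no group of the study, so the counts are a description. Overlap with genes annotated on the opposite strand concerned 23 of the 39 genes, and the sources do not state whether counting used strand. Among them were Tnnc2, Atp2a1, Ckm, Eno3 (overlapping Pfn1) and Pgam2 (overlapping Dbnl). The locus was over 1.2 times the annotated span for 5 genes, Myh2, Myh4, Acta1, Eno3 (1.53 times) and Pgam2 (1.83 times). The part of reads from overlapping genes in these counts was not tested.

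By title, 0 of the 15 tested muscle loci met the criterion used in the study, an unadjusted p under 0.05 together with more than a 2-fold rise or a fall to under 0.5, compared with 3.47% of all tested loci (1.08% higher and 2.39% lower). The fitted log2 fold change of NPRC-/-ApoE-/- over ApoE-/- was above 0 at 14 of 15 (49.1% of all loci), with a median of 0.61 against -0.01 over all loci. Fold changes were large but so were their errors for the genes that split the libraries. For Atp2a1 the log2 fold change was 1.25 ± 1.09 (standard error), for Acta1 1.23 ± 0.89, for the locus of Myh2 and Myh4 1.10 ± 1.57, for Ckm 0.87 ± 0.81 and for Pvalb 0.86 ± 1.49. For Pygm it was 0.46 ± 0.23, for Tcap 0.55 ± 0.41 and for Klhl41 0.61 ± 0.33.

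Jph1 alone had an unadjusted p under 0.05 (13.6% of all loci did), with a log2 fold change of 0.54 ± 0.18 (adjusted p = 0.31, quasi-likelihood test of edgeR, Benjamini-Hochberg), and its titled groups did not overlap in CPM. Pgam2 was below 0, at -0.33 ± 0.15, and its groups did not overlap either, so 2 of 15 loci were without overlap, compared with 7.41% of all loci (3.72% higher and 3.69% lower). No muscle locus had an adjusted p under 0.05 with edgeR, by which 0 of all 20506 tested loci had one. With DESeq2 0 muscle loci had one, compared with 650 of all loci. By DESeq2 2 had an unadjusted p under 0.05, compared with 3423 of all loci. Without ApoE-/- 5, Acta1 (log2 fold change 2.01) and Mybpc2 (1.09) met the criterion, compared with 1132 of all 20506 loci. In that case ApoE-/- 1 is the only library left under that title with a fast-fibre sum above 1.75 FPKM. In the 4 libraries whose title and entry name the same genotype, 3 against 1, the median over the muscle loci was 0.56, with no test.

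**Figure D3:**
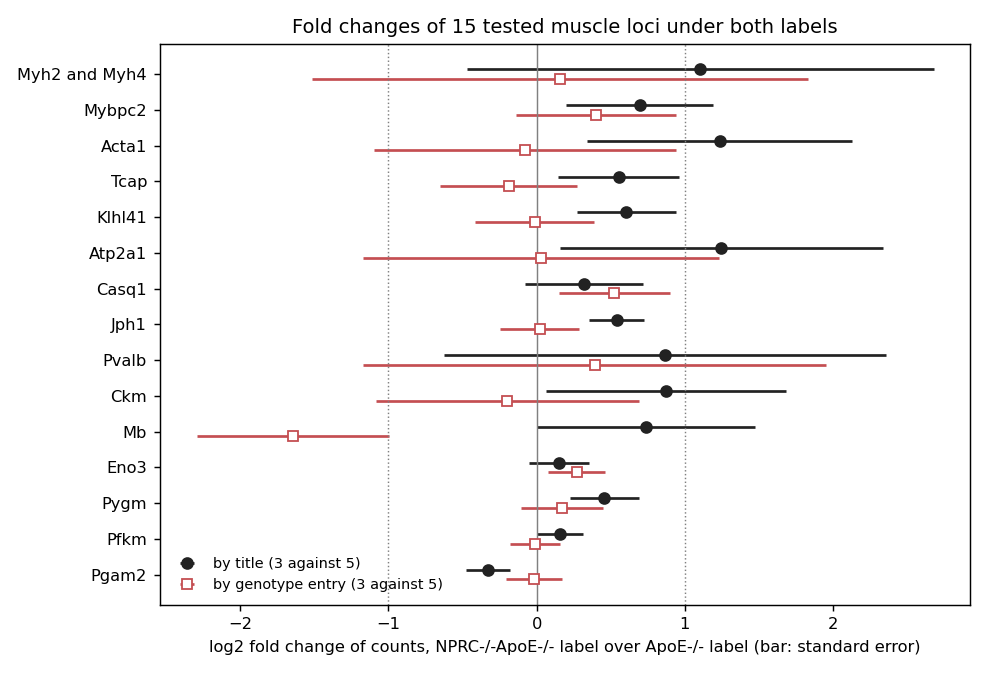
Log2 fold changes of the 15 tested muscle loci (vertical axis) from edgeR, with the standard error as a bar, by title (filled circles) and by genotype entry (open squares), 3 libraries against 5 in each case. By title 14 of 15 points lie above 0, whereas by genotype entry 8 lie above 0 and Mb lies at -1.64.

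By genotype entry the picture changed, since the entry puts ApoE-/- 4 and 5 with NPRC-/-ApoE-/- 3. Of the 15 loci, 8 had a log2 fold change above 0 (49% of all loci) and 7 below, with a median of 0.02. Atp2a1 was at 0.03 ± 1.2, Acta1 at -0.08 ± 1.02, and Ckm at -0.20 ± 0.89. Only Mb met the criterion (0.463% of all loci did, 0.263% lower), with a log2 fold change of -1.64 ± 0.65 (adjusted p = 1, quasi-likelihood test of edgeR, Benjamini-Hochberg). It was also the only one with an unadjusted p under 0.05 (1.31% of all loci). Its FPKM was 0.09, 0.52 and 0.87 in the 3 libraries entered as Nprc-/-Apoe-/- and 1.12 to 2.65 in the 5 entered as Apoe-/-, so these groups did not overlap (1.2% of all loci, 0.566% lower). The call was lost when ApoE-/- 3, ApoE-/- 5 or NPRC-/-ApoE-/- 2 was left out. By title the log2 fold change of Mb had the opposite sign, at 0.74 ± 0.73.

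The 23 genes that did not reach 1 FPKM in 3 libraries were fitted when no filter on low values was used. By title, 2 of the 38 loci then met the criterion, Myh1 (log2 fold change 1.9, adjusted p = 0.33) and Cacna1s (1.40, adjusted p = 0.44), compared with 5.12% of the 44689 loci fitted (1.66% higher). The titled groups also did not overlap at Myh1 and Lmod3, so 3 of the 38 loci were without overlap higher and 1 lower. Among the loci that passed the filter, 3.72% were without overlap higher and 3.69% lower. That share was not computed for all loci fitted. By genotype entry 2 of 38 met the criterion, compared with 1.76% of loci (0.714% lower), namely Mb and Myh7. With edgeR's own filter on low counts, chosen after seeing the data, 2 of 37 loci met it by title (5.3% of all loci) and 2 of 37 by genotype entry (1.01%). The log2 fold change of Myh7 was -3.51, on 26 to 85 counts in the libraries entered as Apoe-/- against 5 or 6 in those entered as Nprc-/-Apoe-/-.

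Other genes of muscle were taken from 6 lists, of which 61 of 114 loci were tested. By title 2 rose (Mylk4, 1.01 ± 0.44, and Synpo2l, 1.13 ± 0.38 on the log2 scale), 1 fell (Eef1a2, -1.84 ± 0.52), and their median log2 fold change was 0.37. The share past the criterion over all loci was 3.47%. In total 22 were higher and 2 lower at an unadjusted p under 0.05, compared with 13.6% of all loci in both directions, and 0 had an adjusted p under 0.05. By genotype entry 0 met the criterion, 0 had an unadjusted p under 0.05, and the median was 0.06. Among 38 other sarcomere genes, the most abundant were Fhl1 (52.8 to 113 FPKM), Tpm2 (25.2 to 58.2) and the locus of Myl6 and Myl6b (19.4 to 40.9), which smooth muscle also uses. The embryonic heavy chain Myh3 had 0 counts in all 8 libraries, and the perinatal Myh8 did not exceed 0.01 FPKM.

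In the muscle membrane complex, which links the cytoskeleton to the matrix, 7 of 11 tested loci were higher at an unadjusted p under 0.05 by title, including Itga7 (0.63 ± 0.13), compared with 13.6% of all loci in both directions. By genotype entry 0 of 11 were. Sgcb was at 0.14 ± 0.15. Of the other calcium and excitation genes, 2 of 7 tested loci were higher by title at an unadjusted p under 0.05. By genotype entry 0 of 7 were, compared with 13.6% of all loci by title and 1.31% by genotype entry, in both directions. Jph2, the junctophilin of heart and smooth muscle, was at 7.18 to 9.27 FPKM under the title ApoE-/- and 12.9 to 16.9 FPKM under NPRC-/-ApoE-/- (log2 fold change by title 0.89 ± 0.15). Atp2a2, the SERCA pump of slow fibres, heart and smooth muscle, was at 59.4 to 94.3 FPKM, and Tmem38a at 1.13 to 3.47 FPKM. The most abundant metabolic genes of the list were Cox6a1 (78.9 to 166 FPKM), Cox8b (19.5 to 137) and Ldha (26.7 to 50.9), and 14 of 20 were tested.

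The transcription factors that define skeletal muscle cells were at or near 0. Myod1 had 6 counts over the 8 libraries, Pax7 had 4, Myog had 26, and Myf5 and Myf6 had 0. Mymx, a gene of the same list that is not a transcription factor, also had 0. Desmin (Des, 8.57 to 24.4 FPKM), Mef2d (6.10 to 9.08) and Mef2c (2.52 to 3.67), which smooth muscle also expresses, were the most abundant of this list of 15. The ubiquitin ligase Trim63 and myostatin (Mstn) of skeletal muscle did not exceed 0.03 and 0.05 FPKM, while Fbxo32 (3.68 to 7.56 FPKM), Foxo3 (2.34 to 7.32) and Foxo1 (1.64 to 3.64) were present throughout.

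Heart muscle genes had no single order over the libraries. Myh6, a heavy chain of heart muscle, was at 1.83, 2.46, 3.32, 0 and 0.43 FPKM in ApoE-/- 1 to 5 and at 0.05, 1.03 and 0.07 FPKM in NPRC-/-ApoE-/- 1 to 3. Actc1, the heart actin, was at 2.74, 7.78, 4.88, 0.82 and 1.39 against 0.70, 1.97 and 1.56. ApoE-/- 2 and 3, where the fast-fibre sum was low, were the highest for both, and ApoE-/- 1, where that sum was high, came next. Nppa, the atrial natriuretic peptide, was highest in NPRC-/-ApoE-/- 2 at 1.02 FPKM, and so was Ryr2 at 6.03 FPKM. Of 12 cardiomyocyte markers, 3 were tested (Gja5, Ryr2 and Myh6), and 0 met the criterion by title or by genotype entry. At an unadjusted p under 0.05, 1 of the 3 was higher by title (13.6% of all loci in both directions). By genotype entry 0 had an unadjusted p under 0.05 (1.31% of all loci). The summed level of the 12 markers, 10.6 to 18.2 FPKM, came mostly from Gja5 and Ryr2, which arteries and smooth muscle also express. Nppb, a defining heart marker, did not exceed 0.09 FPKM.

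Markers of the cells of the aortic wall and its fat also differed between libraries. The 10 smooth muscle markers summed to 1370 to 1830 FPKM under the title ApoE-/- and 1758 to 3031 FPKM under NPRC-/-ApoE-/-. All 10 had an unadjusted p under 0.05 by title (13.6% of all loci did), at a median log2 fold change of 0.73, but 0 had an adjusted one. By genotype entry 0 had an unadjusted p under 0.05 (1.31% of all loci). Acta2 (0.61 ± 0.24), Tagln (0.53 ± 0.23) and Myh11 (0.84 ± 0.27) were the most abundant. The 8 macrophage markers, led by Lyz2, Ctss and Csf1r, summed to 1017, 1447, 2045, 2287 and 726 FPKM in ApoE-/- 1 to 5 and to 1201, 434 and 358 FPKM in NPRC-/-ApoE-/- 1 to 3. They were highest in ApoE-/- 2, 3 and 4, where the fast-fibre genes were lowest. Ctss alone met the criterion by title among them (-1.25 ± 0.54), compared with 2.39% of all loci lower. At an unadjusted p under 0.05, 3 of the 8 were lower by title and 0 by genotype entry.

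The 10 brown fat markers, led by Ucp1, Cox8b (also in the metabolic list above) and Cidea, summed to 427, 580, 131, 252 and 614 FPKM in ApoE-/- 1 to 5 and to 554, 585 and 367 FPKM in NPRC-/-ApoE-/- 1 to 3. ApoE-/- 2 was therefore high for brown fat and low for fast-fibre genes. The 8 white fat markers, led by Adipoq, Fabp4 and Cfd, summed to 111 to 443 FPKM and 153 to 309 FPKM in the titled groups. Neither list had a locus past the criterion by title. The 7 Schwann cell markers, led by Pmp22, S100b and Mbp, summed to 28.4 to 32.7 and 21.9 to 24.9 FPKM. Of their 6 tested loci, 0 had a log2 fold change above 0 by title (49.1% of all loci did). At an unadjusted p under 0.05, 3 were lower (13.6% of all loci in both directions), and 1 of these met the criterion (2.39% lower). By genotype entry 5 of 6 were above 0 (49% of all loci), and 0 had an unadjusted p under 0.05 (1.31%). The part that these cells had in the differences of the muscle genes was not tested.

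**Figure D4:**
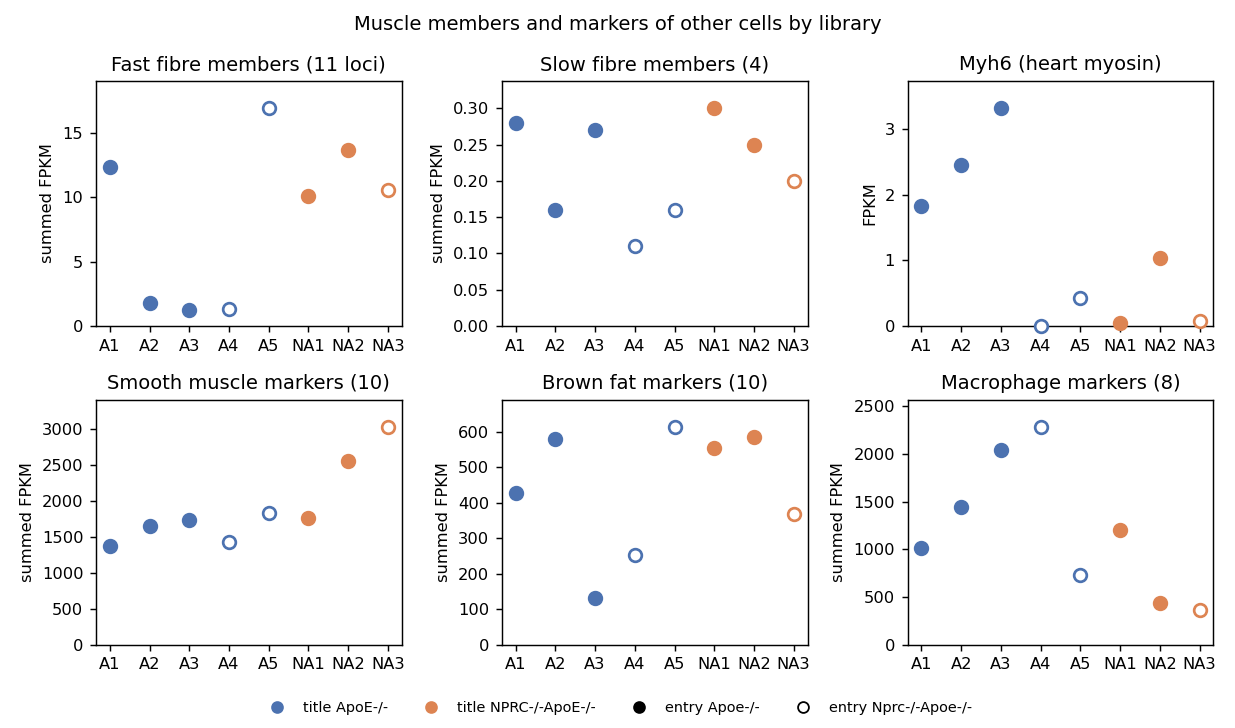
Summed FPKM (FPKM for Myh6; vertical axes, from 0) of the fast-fibre and slow-fibre genes and of markers of other cells in the 8 libraries (horizontal axes; A, titled ApoE-/-; NA, titled NPRC-/-ApoE-/-). Fast-fibre RNA is at 1.24 to 1.75 in A2, A3 and A4, where the macrophage markers are at 1447 to 2287, and Myh6 peaks at 3.32 in A3.

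The tested loci outside the list whose level followed the mean of the muscle genes most closely over the 8 libraries were Specc1l (Pearson r = 0.99 between values of log2(FPKM + 1)), Gng12 with Gm36816 (0.99), Dock9 (0.99), Cavin2 (0.98), Ptprm (0.98), Lyrm4 (0.98), Gm12097 (0.98), Erbb4 (0.98), Tnrc18 (0.98) and Gm6277 (0.98). None of these 10 was in a muscle or marker list. Specc1l was at 1.28 to 2.63 FPKM and Dock9 at 0.99 to 2.21 FPKM, so their range was narrow beside that of the fast-fibre genes. The 8 points are the same libraries, with their depth and tissue make-up in common, and the correlation is a description. Within the list, r with the mean of the muscle genes was 0.98 for Pvalb, 0.97 for Ckm, 0.97 for the locus of Myh2 and Myh4 and 0.97 for Atp2a1, but only 0.57 for Tcap, 0.34 for Mb and 0.27 for Pfkm, and it was -0.57 for Pgam2.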

How the data were processed

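Poly(A) RNA of whole aortas was sequenced as 8 libraries prepared with dUTP, which marks strand. The authors trimmed reads (cutadapt 1.9 and FastQC, with build GRCm38, are named in the submitters' processing notes), used HISAT2 for mapping and StringTie for assembly. They deposited whole-number counts without normalization and FPKM values, scaled by the authors to transcript length and mapped fragments, per assembled locus. How counts were derived and whether counting used strand are not given in the sources used here. All value columns belonged to a sample here (0 did not), and none held a comparison by the authors.

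The 20506 loci that reached 1 FPKM in 3 or more libraries entered the test, on counts, with edgeR 4.0.16 in R 4.3.3 (TMM, quasi-likelihood test, Benjamini-Hochberg adjustment over all loci). Fold changes are those of the label NPRC-/-ApoE-/- over ApoE-/-. The number of libraries limits the precision (biological coefficient of variation 0.327). Tested on counts simulated for the titled groups, 5 against 3 libraries and 20506 loci, the fit called 89 of 100 loci changed by 2 on the log2 scale, 78 of 100 changed by 1.5, and 6 of 20306 unchanged loci at an adjusted p under 0.05, whereas 162 unchanged loci met the unadjusted criterion. The simulated spread was set by the level of a locus alone. It held no split of libraries like that of Myh2 and Myh4 (4 to 1474 counts under the title ApoE-/-). The rates therefore need not hold for such loci. Gene positions come from the table and GENCODE M21, and promoter windows from RefSeq.

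The muscle genes, the lists and the tests were chosen with earlier results of these data known, so they are not independent evidence. Genes given in every library were the 4 myosin heavy chains, the 2 members of each role list with the highest mean FPKM, and members past the criterion by either label. Others, such as Tnnc2, Actn3, Pvalb, Ckm and Ttn, were added after their values were seen. Of the other lists, the 3 genes with the highest mean FPKM and those past the criterion are named, and further ones were picked after their values were seen. Results for 2 genes of these lists are not reported here. The 10 loci most like the muscle genes were ranked by Pearson r. Alternatives covered the label, scaling, DESeq2 1.42.0, limma 3.58.1 on log2(FPKM + 1) and log2(FPKM + 0.1), a robust variance, filters on low values, the replicate number as a block and each library left out. Log2 CPM used a prior count of 2.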

Additional observations from a re-analysis of the deposited data

Results flagged for a closer look

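In the groups of 5 libraries, 124 sets of values (each muscle locus as log2 CPM, and the summed levels) were examined for a library far from the others, and 3 had 1, fewer than the 6.2 that chance gives at about 1 in 20. All 3 were in the group entered as Apoe-/-. The log2 CPM of Smpx was -3.79 in NPRC-/-ApoE-/- 1, below the other 4, and this rests on 4 counts. The summed FPKM of the energy supply genes was 26.9 in NPRC-/-ApoE-/- 2, above the other 4, and that of the other sarcomere genes was 319 in the same library.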

How the results depend on the processing

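Grouped by title, 712 loci met the criterion, and this number moved to 175 with limma on log2(FPKM + 1), 2287 with no filter on low values, 114 when a mean of 5 FPKM was required, 1738 under edgeR's filterByExpr (chosen after seeing the data), 95 with the genotype entry, and 403 to 1635 with each library left out. Of the muscle loci, 0 met it by title, but 2 did with no filter, 2 with filterByExpr, 1 with the genotype entry and 3 with the replicate block, and 0 to 2 with each library left out. By genotype entry 1 met it, against 0 with limma on log2(FPKM + 1) or a mean of 5 FPKM required, 2 with no filter, 2 with filterByExpr and 0 to 1 with each library left out. The median log2 fold change of the muscle loci by title was 0.61, and 0.46 to 0.82 with each library left out. With the genotype entry, the log2 fold change turned to -0.078 for Acta1, -0.19 for Tcap, -0.014 for Klhl41, -0.011 for Pfkm and -1.64 for Mb, and in the 4 libraries with the same label it was -0.56 for Mb. In NPRC-/-ApoE-/- 1, the muscle genes took 0.0280% of the summed FPKM in place of 0.0384% of the counts, and Myh2 with Myh4 took 81.4% of the myosin counts in place of 69.5% of the FPKM. The causes of these changes were not tested.

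The replicate block was fitted to the libraries numbered 1 to 3 of both titles. Same-numbered libraries had a mean correlation of -0.14 in their deviations from the group means (0.07 between the others). Deviations within a group sum to 0, so these mean correlations depend on each other. With few same-numbered pairs (r of -0.31, -0.11 and 0.007), they cannot settle whether the numbers pair libraries. In these 6 libraries the block gave 800 changed loci and its absence 917, and of the muscle loci 3 (Acta1, Atp2a1 and Mybpc2) with it and 0 without it. Among the named muscle loci, 183 fold changes under an alternative with a test kept their direction and their side of the criterion and 5 kept their direction and passed it. Another 9, in the 4 libraries with the same label, kept their direction with no test, and 6 reversed, of which Mb by genotype entry passed the criterion. In the main fit by title 0 muscle loci met the criterion, so keeping their side means only staying short of it. Sizes were not counted. By genotype entry the log2 fold change went from 1.25 to 0.03 for Atp2a1, from 1.10 to 0.16 for Myh2 and Myh4, and from 0.32 to 0.52 for Casq1. Depth limits the 10 genes with a count of 0 in at least 1 library, and the assembly limits Myh1, Myh2, Myh4, Myl1, Acta1, Eno3 and Pgam2.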
